A study of Homo sapiens with 22 samples.

Results

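The genes described are the receptors, kinase, transcription factors and targets of erythropoietin (EPO), KIT and STAT5 signalling: EPOR, KIT, JAK2, STAT5A, STAT5B, CISH, SOCS2, SOCS3, PIM1 and ERFE. They were chosen by symbol, 10 of the 59087 gene names in the count tables, and every one was found in both tables. RNA-Seq was performed in HUDEP-2 cells, an immortalized human erythroid progenitor line, at D0 in expansion medium and at D6 of maturation, in 22 libraries. The H2A.X experiment had 2 WT and 3 H2A.X KO libraries at each day, and the BAZ1B experiment had 3 WT and 3 BAZ1B KO libraries at each day. H2A.X is a histone variant, and BAZ1B is the kinase that phosphorylates its tyrosine near the C-terminus. KO subclones were made with Cas9 and paired guides and grown from single cells, so a KO library is 1 clone, and WT subclones served as controls.

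Cells of all groups received EPO, stem cell factor (SCF, the ligand of KIT) and doxycycline, which keeps the immortalizing transgene of the line switched on, at both days. Dexamethasone was in the expansion medium only. The maturation medium held a higher concentration of SCF, and plasma, heparin, insulin and holo-transferrin were added to it. D6 against D0 is therefore a change of medium, SCF dose included, as well as of time. Both ligands were supplied from outside in WT and KO alike.

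EPO binds the EPO receptor, whose bound kinase JAK2 phosphorylates STAT5A and STAT5B, and these enter the nucleus and switch on target genes. Among those targets, CISH, SOCS2 and SOCS3 encode SH2-domain proteins that dampen the receptor signal, PIM1 encodes a survival kinase, and ERFE encodes erythroferrone, the hormone through which erythroblasts lower hepcidin. KIT is the SCF receptor tyrosine kinase of early erythroid progenitors, and erythroid cells lose it as they mature.

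The promoters of CISH and EPOR are shown because they alone among the members held a match to a motif searched. RefSeq windows (GRCh38.p14, from 250 bases before to 50 bases after a start site) were found for 9 of the 10 members, all but SOCS2. They were searched on both strands for TTCNNNGAA, the palindrome bound by STAT5, and for AGATAA or TGATAA, cores bound by GATA factors. The stretch of CISH, the classical STAT5 target, is chr3:50611855-50612024 on the minus strand, and its capitals mark 4 matches to the STAT5 palindrome. The stretch of EPOR is chr19:11384345-11384434 on the minus strand, and its capitals mark 1 GATA core, read on the opposite strand.
CISH: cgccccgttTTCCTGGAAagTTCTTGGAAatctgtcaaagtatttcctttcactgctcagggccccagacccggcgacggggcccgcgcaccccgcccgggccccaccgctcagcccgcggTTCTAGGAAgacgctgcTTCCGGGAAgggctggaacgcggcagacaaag
EPOR: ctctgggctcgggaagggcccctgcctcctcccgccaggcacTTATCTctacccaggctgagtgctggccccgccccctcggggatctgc
The 4 palindromes of CISH begin 241, 230, 129 and 112 bases before the start site and do not overlap each other. At least 1 palindrome was found in 7.66% of the 35116 promoters of the same length, and 4 or more in 0.0199%. The GATA core of EPOR begins 78 bases before its start, and such a core was found in 16.3% of promoters. These are matches of letters in a window, not measured binding. The genes themselves lie on separate chromosomes for the most part (hg38): EPOR at chr19:11377207-11384342, KIT at chr4:54657267-54740783, JAK2 at chr9:4984390-5129948, CISH at chr3:50606489-50611774 and ERFE at chr2:238158970-238168900. Exons of CISH and SOCS2 share 218 and 277 bp with their neighbours MAPKAPK3 and SOCS2-AS1, so a few of their reads could be shared.

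H2A.X libraries held 11910141 to 21013004 counts and BAZ1B libraries 33199408 to 41273244. The biological coefficient of variation between replicates was 0.239 in the first and 0.0865 in the second, so small changes are better resolved in the BAZ1B experiment. Beta-globin (HBB) was the most abundant of 13 erythroid markers in every group, and none of them was at 0 in any group. Their summed level was 20463 to 29877 CPM, the depth-scaled count, in H2A.X WT at D0 and 9926 to 12305 in H2A.X KO at D0. In the BAZ1B experiment at D0 it was 4954 to 5727 in WT and 6127 to 6710 in KO. The targeted gene H2AFX was at 17.5 to 59.8 CPM in H2A.X KO and 89.7 to 136 in H2A.X WT, and BAZ1B was at 174 to 222 CPM in BAZ1B KO and 242 to 264 in BAZ1B WT, so each was lower in its KO but neither was at 0. The guides flanked the coding region of H2A.X and the first exon of BAZ1B. The source of the reads that remained in the KO libraries was not tested.

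PIM1 was the most highly expressed member per transcript length in all 8 groups, at 157 to 251 CPM per kb as group means, and JAK2 was the lowest of those readily detected, at 20.4 or less. KIT came second at D0 in 3 of the 4 groups, with 139 CPM per kb in BAZ1B WT, 147 in BAZ1B KO and 143 in H2A.X KO, whereas in H2A.X WT it had 46.2 and stood below EPOR, CISH and SOCS2 as well. At D6 EPOR, CISH and ERFE held the next places after PIM1 in every group. EPOR then reached 85.6 to 112 CPM per kb, CISH 77.2 to 113 and ERFE 58.1 to 93.8. SOCS3 was at the edge of detection, with 1 to 14 reads in each H2A.X library and 1 to 22 in each BAZ1B library.

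**Figure D1:**
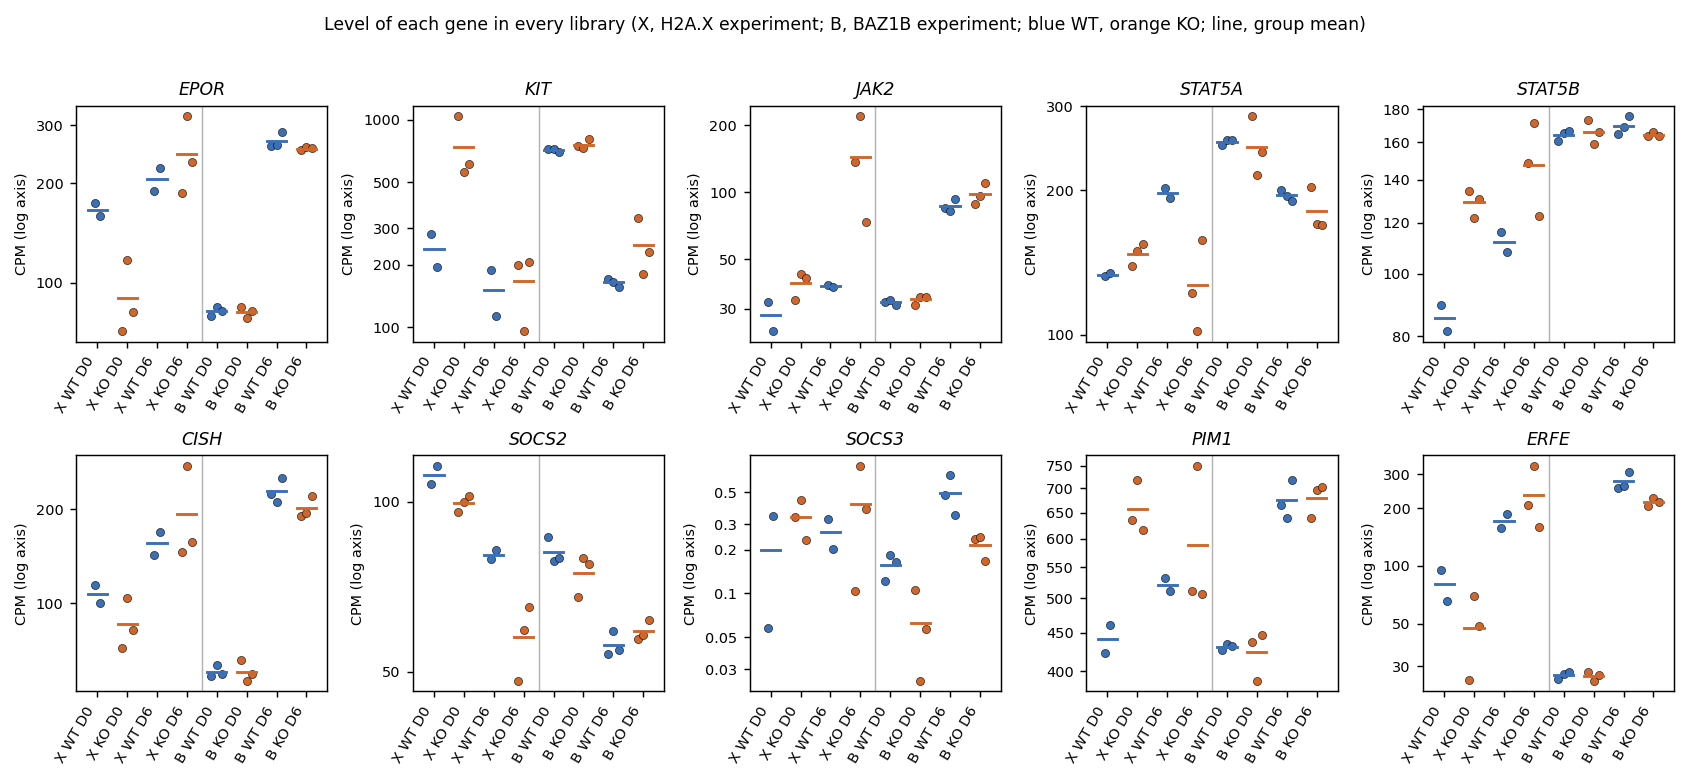
Level of the 10 genes in each of 22 libraries, as CPM on a log axis that differs between panels, by experiment (X, H2A.X; B, BAZ1B), genotype and day, with the group mean as a line. EPOR, CISH and ERFE stood higher and KIT lower at D6 than at D0 in the BAZ1B experiment, and KIT at D0 ranged from 557 to 1036 in H2A.X KO against 195 and 281 in H2A.X WT.

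Maturation was followed first in the BAZ1B experiment, whose replicates were the tightest. From D0 to D6, WT cells raised EPOR, JAK2, CISH, SOCS3, PIM1 and ERFE and lowered KIT, SOCS2 and STAT5A, with the EPO receptor and its kinase going up and the SCF receptor going down. That is 6 higher and 3 lower of 10 members tested, in a comparison where 68.9% of all 13879 genes tested passed the adjusted p of 0.05, 33.5% higher and 35.4% lower. Passing the threshold was therefore common, and the members' share is somewhat above that of all genes. In bulk libraries, fewer cells of a kind and less RNA per cell cannot be told apart, here and in all results. The median log2 fold change was 1.04 over the members and -0.02 over all genes tested. The members' median lay between PIM1 (0.65) and JAK2 (1.43), and SOCS3 (1.63), which had few reads, is among the members above it.

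Among the receptors, EPOR had normalized counts of 2989, 3174 and 3095 in the WT libraries at D0 and 9771, 9856 and 10735 at D6. Every D6 library was above every D0 library, and the rise was 3.28-fold (log2 fold change 1.71, SE 0.05, adjusted p = 1.35e-11). KIT went the other way, from 27214, 27222 and 26297 at D0 to 6438, 6246 and 5869 at D6, with no overlap. The fall was 4.35-fold (log2 fold change -2.12, SE 0.16, adjusted p = 9.40e-08). A normalized count here is a count divided by its library's effective size relative to the experiment's mean.

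JAK2, the kinase bound to the EPO receptor, had normalized counts of 1211, 1239 and 1168 at D0 and 3182, 3100 and 3497 at D6. This was a log2 fold change of 1.43 (adjusted p = 3.00e-09), with every D6 library above every D0 library. The transcription factors that JAK2 activates did not follow it. STAT5A fell 1.30-fold, from 9364, 9561 and 9590 to 7534, 7321 and 7146 (adjusted p = 0.00225). STAT5B did not pass, at 6035 to 6268 at D0 and 6192 to 6592 at D6, with overlapping groups (log2 fold change 0.05, SE 0.04, adjusted p = 0.293).

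The targets of STAT5 did not move as 1 group. CISH had 2199, 2377 and 2223 normalized counts at D0 and 8416, 7916 and 9482 at D6, a rise of 3.80-fold (adjusted p = 4.04e-10). ERFE showed the steepest change of the 10 genes, from 971, 1030 and 1051 to 9596, 9822 and 11646, or 10.2-fold (log2 fold change 3.35, SE 0.08, adjusted p = 5.60e-12). PIM1 rose 1.56-fold, from 16050 to 16314 at D0 to between 24016 and 27008 at D6 (adjusted p = 5.19e-07). SOCS2, which like CISH restrains cytokine receptors, fell instead, from 2946 to 3249 at D0 to between 2016 and 2220 at D6 (1.46-fold, adjusted p = 6.16e-06). SOCS3 went from 5, 8 and 7 reads to 16, 22 and 13 reads, which passed the test (adjusted p = 0.00199) at a level close to none.

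BAZ1B KO cells matured with 6 members higher and 3 lower too, where 67.7% of genes passed, 33.2% higher and 34.5% lower. EPOR rose 3.13-fold, JAK2 2.97-fold, CISH 3.33-fold and ERFE 8.06-fold, while KIT fell 3.03-fold. All of these changes were present in each of the 3 KO subclones. ERFE rose 7.33-, 8.94- and 7.99-fold in the subclones of BAZ1B KO against 9.88-, 9.54- and 11.1-fold in those of WT. KIT kept 0.455, 0.249 and 0.287 of its D0 level in KO and 0.237, 0.229 and 0.223 in WT. All 3 KO values were above those of WT, that of replicate 2 narrowly. The difference between the KO and WT changes of KIT was not called by edgeR (log2 0.52, SE 0.22, adjusted p = 0.258, range 4.44e-11 to 0.447 over the alternatives). It passed in the edgeR fit without a count filter and in that without KO replicate 2 at D6 (adjusted p = 0.0363).

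**Figure D2:**
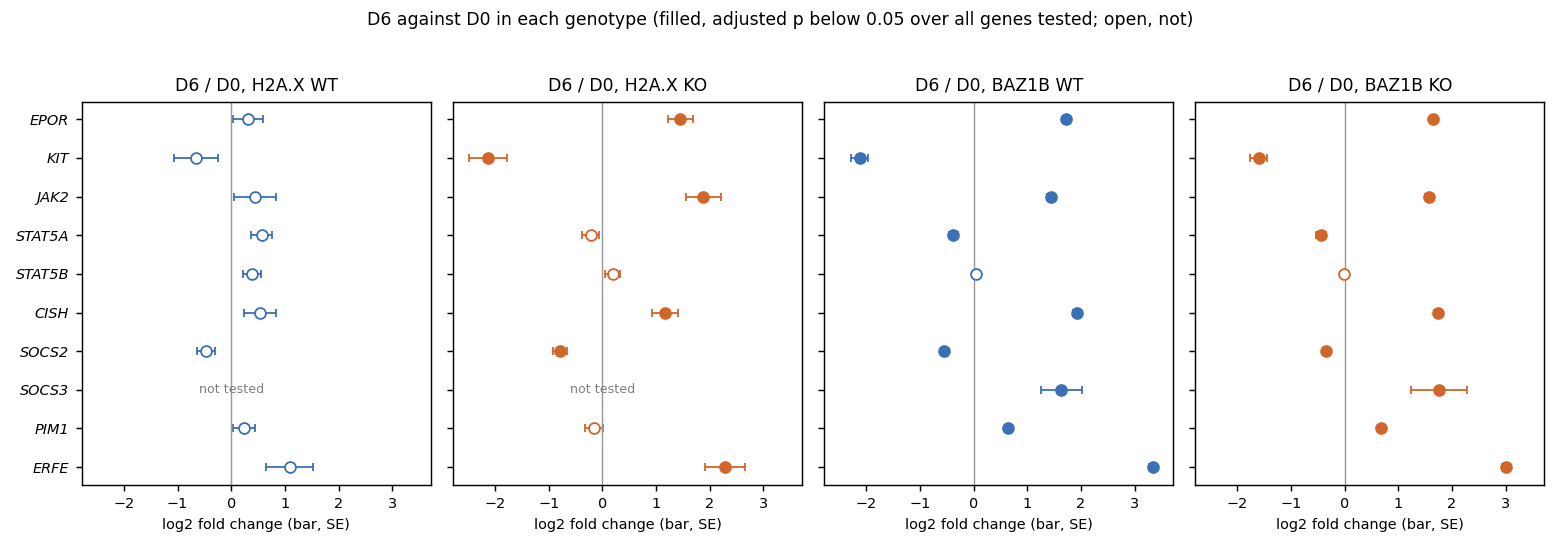
Log2 fold change (x axis, with SE) of D6 against D0 for each gene in 4 genotypes, filled where the adjusted p over all genes tested was below 0.05. ERFE is the farthest to the right and KIT the farthest to the left in BAZ1B WT (3.35 and -2.12) and in BAZ1B KO (3.01 and -1.60), and no gene is filled in H2A.X WT.

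In the H2A.X experiment, H2A.X KO cells raised EPOR, JAK2, CISH and ERFE and lowered KIT and SOCS2 from D0 to D6, that is 4 higher and 2 lower of 9 members tested, where 30.9% of 13236 genes passed, 14.8% higher and 16.1% lower. SOCS3 did not reach the count filter there. ERFE had 446, 1219 and 849 normalized counts at D0 and 3648, 5806 and 2812 at D6, which do not overlap (4.88-fold, adjusted p = 0.00157). EPOR rose 2.61-, 2.73- and 2.85-fold in the 3 subclones (fitted 2.73-fold, adjusted p = 0.00143). JAK2 rose 4.18-, 5.07- and 1.79-fold, the lowest in replicate 3 (fitted 3.67-fold, adjusted p = 0.00228).

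CISH rose in each subclone of H2A.X KO, by 2.04-, 2.64- and 1.91-fold (fitted 2.24-fold, adjusted p = 0.00561). KIT fell to 0.192, 0.173 and 0.337 of its D0 level (fitted 4.40-fold, adjusted p = 0.00176), and SOCS2 to 0.502, 0.592 and 0.635 (1.73-fold, adjusted p = 0.00205). Each of these 6 changes had the direction it had in the BAZ1B experiment. PIM1 did not pass here: it stood at 11166, 12602 and 10835 at D0 and 8971, 13167 and 8908 at D6, where it rose in BAZ1B WT and KO.

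H2A.X WT cells showed none of these changes at the threshold: 0 of 9 members were called by edgeR, against 2% of all genes tested (0.839% higher and 1.16% lower), and 0 by DESeq2, while 4 had an unadjusted p below 0.05. ERFE passed where WT libraries were fitted alone (adjusted p = 0.0396, range 0.000366 to 0.674 over the alternatives). ERFE went from 1669 and 1157 to 2751 and 3253 (log2 fold change 1.09, SE 0.44, adjusted p = 0.195), and KIT from 4935 and 3422 to 3315 and 1988 (log2 fold change -0.66, SE 0.42, adjusted p = 0.404). Both have the direction of the other 3 groups. STAT5A did not: it went from 2323 and 2368 to 3554 and 3388, up in both WT subclones (log2 fold change 0.57, SE 0.19, adjusted p = 0.141), whereas it fell in BAZ1B WT.

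The H2A.X WT libraries at D0 already held more erythroid marker RNA than the D0 libraries of the other 3 groups, as given above, and had 166.7 CPM of EPOR and 80.4 of ERFE as group means. The same genes were at 82.1 and 27.1 CPM in BAZ1B WT at D0. KIT was at 238 CPM there, against 716 in BAZ1B WT. Of the 13 erythroid markers, 13 were called higher at D6 than at D0 in BAZ1B WT, 13 in BAZ1B KO and 12 in H2A.X KO. In H2A.X WT, with 2 libraries at each day, edgeR called 0, although the summed level went from 20463 to 29877 CPM at D0 to between 34547 and 61024 at D6 and beta-globin (HBB) had a log2 fold change of 0.98 without overlap (adjusted p = 0.160). Levels from different experiments were scaled separately and were not tested against each other, and the part of these starting levels in the WT result was not tested.

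Loss of H2A.X was then compared with WT at D0. KIT, STAT5B and PIM1 were higher and EPOR was lower in H2A.X KO, 3 higher and 1 lower of 9 members tested, where 35.1% of all genes tested passed, 18.4% higher and 16.7% lower. The members' share is thus close to that of all genes. Their median log2 fold change was 0.14, against 0.01 over all genes.

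KIT had 18201, 9785 and 10798 normalized counts in the KO libraries and 4935 and 3422 in the WT libraries. Every KO library was at least 9785, well above both WT libraries, and KIT was 3.09-fold higher (log2 fold change 1.63, SE 0.40, adjusted p = 0.0138). EPOR showed the reverse, at 1259, 2055 and 1433 in KO and 3060 and 2797 in WT, without overlap (1.85-fold lower, log2 fold change -0.89, SE 0.25, adjusted p = 0.0217). So the SCF receptor stood higher and the EPO receptor lower in the same KO libraries, relative to H2A.X WT. As group means at D0, H2A.X KO had 736 CPM of KIT and 90.1 of EPOR. BAZ1B WT had 716 and 82.1, and H2A.X WT had 238 and 167. H2A.X WT was thus the group apart in these levels, which were not tested between experiments.

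STAT5B was at 2362, 2148 and 2296 in KO against 1572 and 1433 in WT (1.51-fold higher, adjusted p = 0.0189). Its paralog STAT5A, which lies head to head with it on chromosome 17, was at 2438, 2625 and 2713 against 2323 and 2368 (log2 fold change 0.14, SE 0.18, adjusted p = 0.536). Their annotated exons share 415 bp on opposite strands, which is 6.50% of the exons of STAT5A and 3.43% of those of STAT5B. Whether the counting used strand is not given in the sources used here. PIM1 was at 11166, 12602 and 10835 in KO and 7435 and 8092 in WT (1.49-fold higher, adjusted p = 0.0406).

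The remaining members gave no call at D0. ERFE had 446, 1219 and 849 normalized counts in KO and 1669 and 1157 in WT, which overlap (log2 fold change -0.75, SE 0.39, adjusted p = 0.152). CISH was at 1260, 1827 and 1440 in KO and 2005 and 1762 in WT (log2 fold change -0.32, SE 0.27, adjusted p = 0.365). JAK2 and SOCS2 had log2 fold changes of 0.47 and -0.17, with adjusted p of 0.323 and 0.400.

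These D0 calls depended on single libraries. Without WT replicate 2 none of the 4 members was called, and KIT had a log2 fold change of 1.39 with adjusted p = 0.156, while 77 genes were called in all. Without KO replicate 1 or KO replicate 3 only KIT passed. The lowest adjusted p of KIT, 3.88e-12, came from the edgeR fit without a count filter, and DESeq2 gave 0.000207. That unfiltered fit also gave the lowest values printed below for JAK2 in H2A.X KO at D6 and for KIT in BAZ1B KO at D6. Over all 18 alternatives the adjusted p of KIT ranged from 3.88e-12 to 0.156, and its log2 fold change from 1.10 to 1.92.

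The H2A.X KO effect was related to transcript length across all genes with a length (Spearman rho = 0.544 over 12017 genes at D0 and 0.601 at D6, against -0.03 and 0.05 for BAZ1B KO), a description over genes that share libraries. With a correction for length and GC content, STAT5B fell below the threshold at D0 (log2 fold change 0.25, adjusted p = 0.186, range 0.00281 to 0.186 over the alternatives), as did EPOR (-0.63, adjusted p = 0.0849, range 0.000157 to 0.123). KIT and PIM1 stayed past it, with log2 fold changes of 1.20 and 0.74, and the adjusted p of PIM1 ranged from 0.00797 to 0.156 over the alternatives. The deposited headers add the word Redo to 5 of the 6 H2A.X KO columns and to no WT column, so at D0 whatever it marks cannot be told apart from the genotype.

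At D0, the called mast cell and eosinophil markers had the direction of KIT, which is also a mast cell gene. Of 8 tested of 15 listed, 6 were higher in H2A.X KO at D0 and 0 lower, and their summed level was 276 to 620 CPM in KO and 125 to 157 in WT. At D0 this sum was 582 to 616 CPM in BAZ1B WT and 585 to 784 in BAZ1B KO. H2A.X WT thus had the lowest sums at D0, and levels were not tested between experiments. The 6 called higher in H2A.X KO were CPA3, EPX, MS4A2, SIGLEC6, IL1RL1 and TPSD1. The mast cell carboxypeptidase CPA3 averaged 193 normalized counts in KO and was at 0 in WT, the eosinophil peroxidase EPX averaged 145 and 2.21, MS4A2, a chain of the IgE receptor, 377 and 7.31, and SIGLEC6 1176 and 25.9. The tryptases TPSB2 and TPSAB1 had the highest levels of the list and were not called (adjusted p = 0.210 and 0.0524). The other listed markers PRG3, CLC, CMA1 and RNASE2 were at 0 in all H2A.X libraries at D0. Erythroid markers went the other way, with 10 of 13 lower in KO and 1 higher. The part of either in the KIT and EPOR values was not tested. The single tested marker of megakaryocytes (ITGA2B) and that of monocytes and neutrophils (LYZ) were also higher in KO at D0, with summed levels of 32.7 to 75.7 CPM in KO against 8.79 to 9.67 in WT for the first list and at most 2.17 CPM for the second. In BAZ1B WT at D0 these lists summed to 72.5 to 75.6 and 4.43 to 6.40 CPM. The early progenitor marker was not called, and no lymphocyte marker reached the filter.

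**Figure D3:**
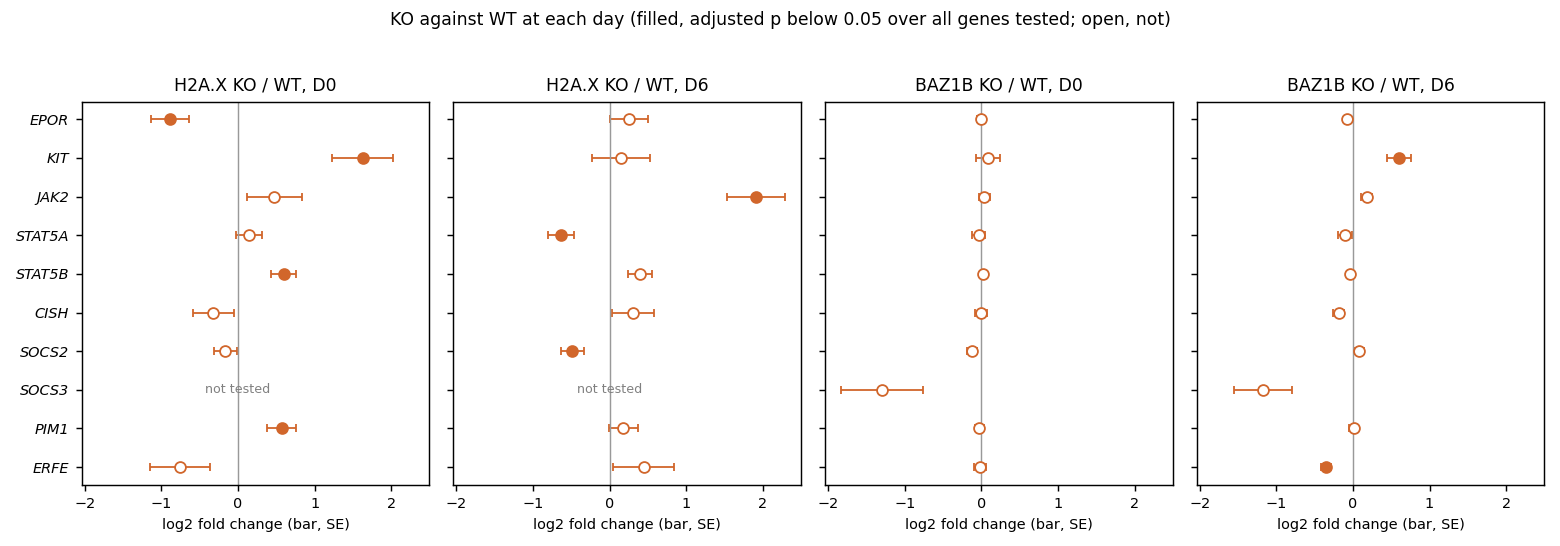
Log2 fold change (x axis, with SE) of KO against WT for each gene, by experiment and day, filled where the adjusted p over all genes tested was below 0.05. KIT (1.63) and EPOR (-0.89) lie on opposite sides in H2A.X KO at D0, JAK2 (1.91) is the farthest right at D6, and the BAZ1B values other than those of SOCS3 stay between -0.35 and 0.60.

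At D6, JAK2 was higher and STAT5A and SOCS2 were lower in H2A.X KO than in WT, 1 higher and 2 lower of 9, where 43.1% of all genes tested passed, 22.2% higher and 20.9% lower, so the members' share was the smaller. The members' median log2 fold change was 0.25, and that of all genes -0.01.

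JAK2 had 2410, 3840 and 1294 normalized counts in KO and 676 and 660 in WT. All KO libraries were above both WT libraries but spread widely among themselves, and the difference was 3.76-fold (log2 fold change 1.91, SE 0.38, adjusted p = 0.00508). Corrected for length and GC content, that value was 0.97 (adjusted p = 0.0464, range 2.09e-15 to 0.0673 over the alternatives). JAK2 has the longest canonical transcript of the 10 members, 7023 bases.

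STAT5A was at 2148, 1790 and 2763 in KO and 3554 and 3388 in WT (1.55-fold lower, adjusted p = 0.0150). SOCS2 was at 847, 1041 and 1144 in KO and 1389 and 1444 in WT (1.40-fold lower, adjusted p = 0.0243). Neither pair of groups overlapped, and the length correction kept both calls. KO replicate 3 at D6, whose column lacks the word Redo, lay on the same side of WT as the other KO libraries for JAK2, STAT5A and SOCS2, and was the nearest to WT for each. Without it the log2 fold change of JAK2 was 2.26.

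KIT did not pass at D6, with 3488, 1691 and 3636 in KO and 3315 and 1988 in WT, which overlap (log2 fold change 0.15, SE 0.38, adjusted p = 0.772). EPOR, too, overlapped, at 3286, 5605 and 4077 against 3336 and 3917 (log2 fold change 0.25, SE 0.25, adjusted p = 0.431). STAT5B was 1.32-fold higher at an adjusted p of 0.0655. It passed with DESeq2 (adjusted p = 0.0329, range 0.00769 to 0.987 over the alternatives), and its log2 fold change was -0.04 with the length and GC correction.

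Calls at D6 also leaned on the 2 WT libraries. Without WT replicate 2 no member was called and JAK2 had adjusted p = 0.0673, and without WT replicate 1 only JAK2 was. Fitting the D6 libraries alone left JAK2 as the only call, with STAT5A at adjusted p = 0.0742 (range 0.00177 to 0.0900 over the alternatives) and SOCS2 at 0.108 (range 0.00953 to 0.154). At D6 the mast cell and eosinophil markers were lower in KO, 4 of 8, with sums of 4.71 to 17.9 CPM against 163 to 272 in WT, and their part in these values was not tested.

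**Figure D4:**
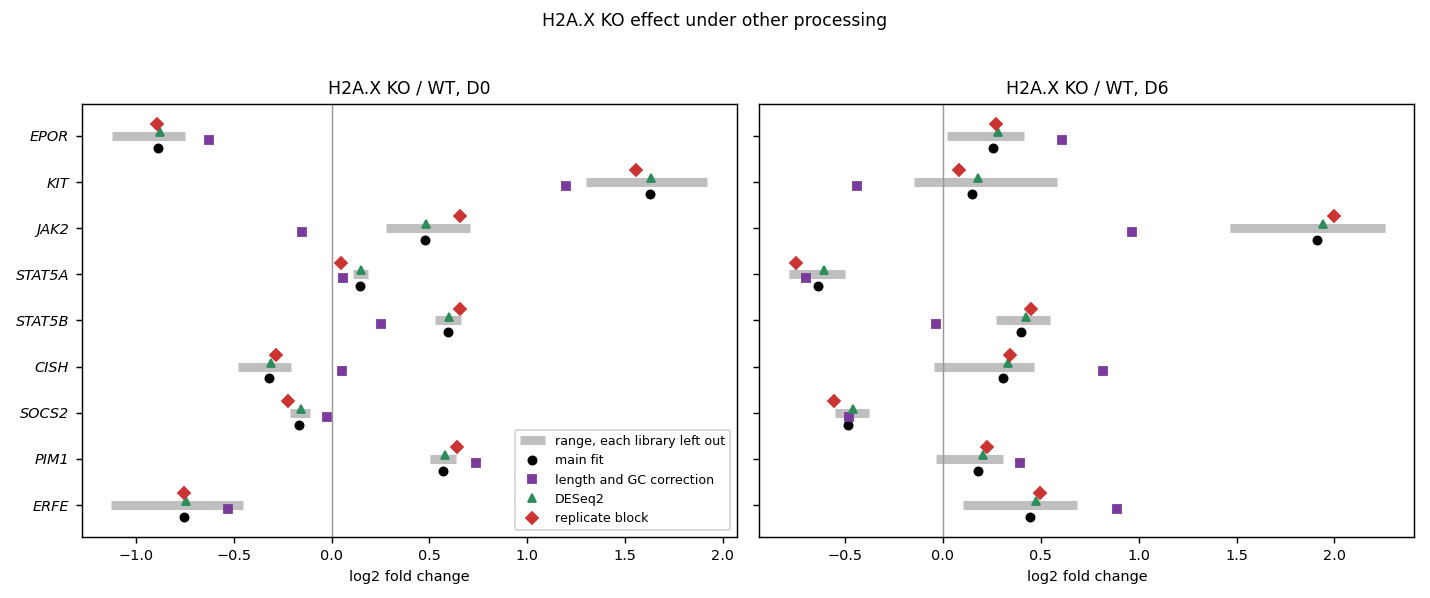
Log2 fold change (x axis) of H2A.X KO against WT for 9 genes at D0 and D6 by edgeR, after length and GC correction, with DESeq2 and with a replicate term, and as a grey bar the range when each library is left out. The corrected values of JAK2 and STAT5B lie to the left of the uncorrected ones at both days (JAK2 at D6 0.97 against 1.91), and PIM1 and EPOR lie to the right.

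Whether the effect of H2A.X loss changed between D0 and D6 was tested as the difference of both effects. None of 9 members was called by edgeR, against 1.34% of all genes tested (0.302% higher and 1.04% lower), and DESeq2 called 0, while 4 had an unadjusted p below 0.05. The largest differences were in KIT (log2 -1.48, SE 0.54, adjusted p = 0.224), JAK2 (1.44, SE 0.51, adjusted p = 0.215), ERFE (1.20, SE 0.56, adjusted p = 0.346) and EPOR (1.14, SE 0.36, adjusted p = 0.163). With a term for the subclone, which pairs the D0 and D6 libraries of 1 clone, EPOR (adjusted p = 0.0150, range 0.00194 to 0.376 over the alternatives) and KIT (adjusted p = 0.0261, range 5.37e-05 to 0.500) passed, with log2 differences of 1.14 and -1.49. That libraries of 1 number are 1 clone was taken from the headers, and the labels do not state it. In the paired values, EPOR rose 2.61- to 2.85-fold in the KO subclones and 1.09- and 1.40-fold in the WT subclones. KIT kept 0.173 to 0.337 of its level in KO and 0.581 and 0.672 in WT.

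No member was called between BAZ1B KO and WT at D0. edgeR called 0 of 10 (3.88% of all genes tested, 1.25% higher and 2.64% lower), DESeq2 called 0, and only SOCS3 had an unadjusted p below 0.05. Apart from SOCS3, all log2 fold changes were between -0.12 (SOCS2, SE 0.06) and 0.08 (KIT, SE 0.15). KIT itself was at 27919, 27375 and 30280 in KO and 27214, 27222 and 26297 in WT. SOCS3 had 4, 1 and 2 reads in KO and 5, 8 and 7 in WT, too few reads for a fold change.

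At D6 KIT was higher and ERFE lower in BAZ1B KO, 1 in each direction of 10, where 12.8% of all genes tested passed, 6.87% higher and 5.97% lower. ERFE had 7708, 8492 and 8107 normalized counts in KO and 9596, 9822 and 11646 in WT, without overlap (1.28-fold lower, log2 fold change -0.35, SE 0.07, adjusted p = 0.00399). It stayed past an adjusted p of 0.05 under all 20 alternatives, with log2 fold changes of -0.40 to -0.27. KIT had 12697, 6807 and 8696 in KO and 6438, 6246 and 5869 in WT (1.52-fold higher, log2 fold change 0.60, SE 0.16, adjusted p = 0.0226). All KO libraries were above all WT libraries, but they spread widely, and replicate 1 held the highest value.

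The KIT call did not hold when any 1 of the WT libraries at D6 was left out (adjusted p 0.0525 to 0.0927) or when D6 libraries were fitted alone (0.0653, range 2.01e-30 to 0.0927 over the alternatives). Without KO replicate 1 its log2 fold change was 0.33 (adjusted p = 0.0245). SOCS3 had 9, 8 and 6 reads in KO and 16, 22 and 13 in WT (adjusted p = 0.0598). EPOR, JAK2, STAT5A, STAT5B, CISH, SOCS2 and PIM1 had log2 fold changes between -0.19 and 0.18. The difference between the BAZ1B KO effects at D6 and D0 was called by edgeR for none of the 10 members, against 2.47% of genes (1.58% higher and 0.893% lower), with 3 at an unadjusted p below 0.05. For ERFE it was -0.34 (SE 0.10, adjusted p = 0.110), and it passed with the subclone term (adjusted p = 0.0398) and with DESeq2 (0.0406), over a range of 0.00154 to 0.258 in all alternatives. At D6, 4 of the 13 erythroid markers were lower in BAZ1B KO, with sums of 25531 to 29753 CPM against 31858 to 37682 in WT, 1 of 9 tested mast cell and eosinophil markers was lower, and so was the megakaryocyte marker ITGA2B (log2 fold change -1.59, adjusted p = 0.00660). Their part in the ERFE and KIT values was not tested.

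The study's own rule for differentially expressed genes, an unadjusted p below 0.001 with a log2 fold change beyond 1.5 in either direction, was applied to the same fits after the other results were known. Between KO and WT it called JAK2 in H2A.X KO at D6, where 5.53% of all genes passed, and no other member: 3.88% of genes passed for H2A.X KO at D0, and 1.09% and 1.27% for BAZ1B KO at D0 and D6. With maturation it called KIT, JAK2 and ERFE in H2A.X KO (7.28% of genes) and no member in H2A.X WT (1.18%). In BAZ1B WT it called EPOR, KIT, CISH, SOCS3 and ERFE (12.3% of genes), and in BAZ1B KO it called EPOR, KIT, JAK2, CISH and ERFE (12.2%). For the difference between days it called no member, against 1.44% of genes for H2A.X KO and 0.36% for BAZ1B KO.

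With the adjusted p held below 0.001 in place of the unadjusted one, no member was called between KO and WT, where 0.166% and 0.151% of genes passed for H2A.X KO at D0 and D6 and 0.36% and 0.749% for BAZ1B KO. For D6 against D0 no member was called in H2A.X KO (3.22% of genes) or H2A.X WT (0%), and 4 and 5 members were called in BAZ1B WT and KO (11.7% and 11.5%). For the difference between days 0% and 0.0288% of genes passed, with no member.

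The wider pathway was followed with 79 further genes: ligands, other receptors, kinases, STATs, adaptors, negative regulators, the PI3K and RAS branches and other targets. Of these, 68 were tested in each experiment, and the ligand genes EPO and KITLG were among the 11 too low to test. At D0, 27 were higher and 6 lower in H2A.X KO (48.5% of those tested, against 35.1% of all genes), with a median log2 fold change of 0.49. At D6 it was 29 higher and 7 lower, against 43.1% of all genes (22.2% higher and 20.9% lower), with a median of 0.53. These counts, and the pathway genes named below, come from the fit without the length and GC correction. With that correction 2679 of all genes were called at D0 and 2789 at D6 in H2A.X KO. The pathway was not recounted with it, so the part of transcript length in these values was not tested. Over all genes, the calls dropped to 77 at D0 and 152 at D6 without WT replicate 2 of that day, and the pathway was not recounted without it. In BAZ1B KO 1 was higher and 1 lower at D0, where 3.88% of all genes passed, and 4 were higher and 10 lower at D6, where 12.8% passed.

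EGR1, an early response transcription factor downstream of the MAPK cascade, differed in opposite directions at both days in H2A.X KO. At D0 it had a mean of 9402 ± 2571 (SD, n = 3) normalized counts in KO against 1244 ± 24.2 (SD, n = 2) in WT (log2 fold change 2.92, adjusted p = 0.00660). At D6 the means were 14.2 ± 18.2 and 57.3 ± 12.7 (log2 fold change -2.03, adjusted p = 0.0347). It was the only one of the 68 pathway genes called for a difference between days in the H2A.X KO effect (log2 -4.94, SE 0.84, adjusted p = 0.0227). In BAZ1B KO it was lower at D6, at 18.1 ± 0.436 against 68.8 ± 24.5 (SD, n = 3 each, adjusted p = 0.00107), and that effect differed from D0 as well (log2 -2.05, adjusted p = 0.00695).

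Among the adaptors and negative regulators, CBL, the ubiquitin ligase that turns over activated KIT, was 5.22-fold higher in H2A.X KO at D0 (adjusted p = 0.00491), and the adaptor GAB2 4.86-fold higher (adjusted p = 0.0207). HRAS was 2.86-fold lower (adjusted p = 0.00879), and so were the cyclins CCND2 (2.81-fold, adjusted p = 0.00122) and CCND3 (2.55-fold, adjusted p = 0.0145). At D6 FOXO3, a transcription factor that AKT inactivates, was 4.55-fold higher in KO, SOS2 2.92-fold and PDPK1 2.89-fold, while the phosphatase gene PTPN6, whose product acts on the EPO receptor complex, was 5.80-fold lower. FOXO3 and PTPN6 spread widely among the KO libraries. FOXO3 had 4397 ± 2711 (SD, n = 3) normalized counts in KO against 967 ± 41.7 (SD, n = 2) in WT, and PTPN6 39.6 ± 44.5 against 230 ± 77.1. HRAS was 2.58-fold lower again. The HRAS means were 122 ± 25.3 in KO and 317 ± 126 in WT at D6.

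In BAZ1B KO at D6, MAP2K2, a kinase of the MAPK cascade, was 1.52-fold higher (14530 ± 1397 against 9586 ± 292 normalized counts, SD, n = 3 each, adjusted p = 3.62e-05). PIK3R1, a regulatory subunit of PI3K, was 1.30-fold higher. DUSP6, a phosphatase of ERK, was 1.70-fold lower and CCND3 1.49-fold lower. The MAP2K2 and PIK3R1 effects were larger at D6 than at D0 (log2 difference 0.58, adjusted p = 0.00392, and 0.36, adjusted p = 0.0452), and for MCL1 the difference was -0.19 (adjusted p = 0.0474). At D0 OSM was 1.26-fold higher and GAB1 1.24-fold lower.

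With maturation, BAZ1B WT raised 26 and lowered 33 of the 68 pathway genes, and BAZ1B KO 23 and 32, where 68.9% and 67.7% of all genes passed, about evenly in both directions. CSF2RB, the shared receptor chain of interleukin-3 and GM-CSF, fell 20.1-fold in WT and 22.5-fold in KO, and VAV1, a signalling adaptor of blood cells, fell 25.3-fold and 35.8-fold. EGR1 fell 17.8-fold and 73.8-fold. GAB1, CCND3 and the transferrin receptor gene TFRC rose, by 3.06-, 4.27- and 3.14-fold in WT and by 3.62-, 3.18- and 3.27-fold in KO.

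H2A.X KO raised 13 and lowered 16 with maturation, where 30.9% of all genes passed, among them CSF2RB (20.8-fold lower), PTPN6 (15.5-fold lower), CCND3 (4.53-fold higher), FOXO3 (4.96-fold higher) and CCND2 (2.98-fold higher). Its EGR1 fell from 9402 to 14.2 normalized counts. In H2A.X WT, where 2% of all genes passed, 2 rose and 2 fell: SOCS1 (2.99-fold) and CCND2 (2.15-fold) rose, and EGR1 (21.3-fold) and SPRY1 (2.25-fold) fell. Both KO against WT and D6 against D0 use the same libraries within an experiment, so these lists share samples.

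Genes whose level ran most like that of a member over the 22 libraries were found among 10065 genes by the root mean square difference of log2 CPM, centred within each experiment. The nearest to EPOR were TANGO2 (0.11), EHBP1L1 (0.14) and ZFYVE21 (0.16). CISH had TANGO2 (0.15), ST6GALNAC4 (0.17) and EPOR itself (0.17) as its nearest, so EPOR was the third nearest gene to this STAT5 target. KIT was nearest to CRIM1 (0.22), SLC7A6 (0.25) and MSN (0.26), and ERFE to OSBP2 (0.25), SLC25A37 (0.28) and SLC2A1 (0.29). The median difference over all genes compared was 0.814 for EPOR, 0.827 for CISH, 1.06 for KIT and 1.41 for ERFE.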

How the data were processed

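RNA-Seq of HUDEP-2 subclones was analysed. Per the labels and the paper's methods, the authors trimmed single-end reads with fastp, mapped them with STAR 2.7.0f to hg38 with GENCODE annotation and counted them with featureCounts of Subread 1.6.4. The deposited values are raw counts per gene, without normalization. The labels name an unstranded library kit and the methods a stranded one.

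In R 4.3.3, edgeR 4.0.16 was run on each experiment, all libraries of both days together: filterByExpr (minimum count 10, minimum total 15), TMM and a quasi-likelihood F test (two-sided) with 1 coefficient per genotype and day. Benjamini-Hochberg adjusted p below 0.05 over all genes tested (13236 and 13879) was a call. The SE came from the F statistic. Counts have no molecular identifiers, so depth covers counting error only. p-values measure the spread between libraries of the same genotype and day. Without a subclone term, the D0 and D6 libraries of 1 number were treated as independent. CPM per kb used canonical transcripts of GENCODE on GRCh38; of 59087 names, 36434 matched by name and 759 by an older one.

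The members, the further pathway genes and the marker lists were chosen with earlier results of these data known. Pathway genes named in the text are, per comparison, up to 3 per direction with the largest change among those called, without overlap between groups and averaging 50 or more normalized counts over the experiment; 1 such gene is not reported here. D0 and D6 libraries of 1 number carry the same subclone or replicate number in the headers and were taken as 1 subclone, which the labels do not state. Their deviations from the group means correlated at 0.600, 0.370 and 0.306 in H2A.X KO, 0.557 in H2A.X WT, 0.480, 0.565 and 0.103 in BAZ1B KO, and 0.209, -0.04 and 0.158 in BAZ1B WT, so a subclone term was fitted as an alternative. No pair of replicates held the same counts. The other alternatives were DESeq2 1.42.0, upper-quartile normalization, no count filter, no globin genes and a stricter cutoff (adjusted p below 0.001 and absolute log2 fold change above 1.5). The study's cutoff for differentially expressed genes (p below 0.001, taken as unadjusted, and the same fold change) was added after the data were seen. Further alternatives were a spline correction for length and GC content, fits of 1 day or genotype, a replicate-number term and each library left out. The procedure was also run on simulated counts, drawn as independent libraries without a relation to transcript length. Such counts do not bear on the length relation, the Redo columns or subclones shared between days.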

Additional observations from a re-analysis of the deposited data

Results flagged for a closer look

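STAT5A moved in opposite directions with maturation in the WT cells of the experiments. In H2A.X WT every D6 library was above every D0 library (log2 fold change 0.57), and in BAZ1B WT every D6 library was below every D0 library (-0.37). The difference between both was not tested, since the experiments came as separate count tables and were scaled separately. Groups of 2 or 3 libraries were too small for a test of outlying libraries.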

How the results depend on the processing

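Members called were recounted under each alternative, and over all of the values none that was called changed sign. Where the adjusted p had to be below 0.001 and the log2 fold change beyond 1.5, 0 members were called for H2A.X KO against WT at D0, at D6 and for D6 against D0 in H2A.X KO, 0 for BAZ1B KO at D6, and 4 and 5 for D6 against D0 in BAZ1B WT and KO. The study's cutoff, with its p taken as unadjusted, was added after seeing the data. With it, 0 members were called for H2A.X KO at D0, 1 at D6 and 3 for D6 against D0 in H2A.X KO. For BAZ1B KO at D6 it gave 0, and for D6 against D0 in BAZ1B WT and KO 5 and 5. Without a count filter, 2 were called for D6 against D0 in H2A.X WT, 4 for the H2A.X difference between days, 4 for BAZ1B KO at D6 and 2 for the BAZ1B difference. The length and GC correction gave 2 for H2A.X KO at D0, and the replicate block with that correction gave 5 at D6. Libraries of 1 day alone gave 1 for H2A.X KO at D6 and 1 for BAZ1B KO at D6, and libraries of 1 genotype alone gave 1 for D6 against D0 in H2A.X WT. The subclone block gave 2 for the H2A.X difference between days and 1 for the BAZ1B difference, and with the length and GC correction 2 and 1, and 1 for D6 against D0 in H2A.X WT. DESeq2 gave 1 for the BAZ1B difference. With each library left out in turn, the counts ran from 0 to 4 for H2A.X KO at D0, 0 to 4 at D6, 0 to 2 for the H2A.X difference, 1 to 3 for BAZ1B KO at D6, 0 to 1 for the BAZ1B difference, and 6 to 7 for D6 against D0 in H2A.X KO. Leaving out single libraries kept the count for D6 against D0 at 9 in both genotypes of the BAZ1B experiment. It was 10 in BAZ1B WT with the length and GC correction, with or without the subclone block, and 8 in BAZ1B KO with libraries of that genotype alone. Unless given with a value above, the cause of these shifts was not tested.

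The subclone block changed no other call of a member than those of EPOR and KIT in the H2A.X difference between days and of ERFE in the BAZ1B difference. KO and WT replicates share only a number. The correlations of their deviations were 0.0905 and 0.118 at D0 and 0.221 and 0.188 at D6 in the H2A.X experiment, and -0.116 to 0.241 in the BAZ1B experiment. A block on that number called 4 members for H2A.X KO at D0 and 4 at D6, with STAT5B added at D6 (adjusted p = 0.0447). With 2 WT clones, the H2A.X fits left with 1 WT library assume that it varies like the other groups.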
